A study of Mus musculus with 11 samples.

Results

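The genes described here make, carry and remove extracellular adenosine, and they were compared in the nucleus accumbens between 6 wild-type (WT) mice and 5 Rarb-null littermates, which lack a receptor for retinoic acid. They were chosen by symbol: Nt5e, Adora1, Adora2a, Adora2b, Slc29a1, Ada, Adk, Entpd1, Entpd2 and Entpd3, each to be read by a probe set annotated with that single symbol. Of these 10 genes, 7 had such a probe set, among 19938 genes read in this way. None was found for the receptor genes Adora1, Adora2a and Adora2b, which were not analysed here, so the label of adenosine receptors is not borne out by the probe sets and the 7 genes are enzymes and 1 transporter. Nt5e entered the group because it was known to be lower in these arrays; its genotype difference is therefore a description with no test. The other genes entered by function, with earlier results of the same arrays known.

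All mice were behaviourally untested males aged 4 to 5 months, born to heterozygous parents on a mixed C57BL/6J and 129SvEms/j background, and each array held the RNA of 1 mouse. The labels limit the null mutation to no cell type, and no cell type was selected: the tissue was a 0.5 mm punch of accumbens enriched in its shell. Levels are log2 values of robust multi-array analysis (RMA) from Affymetrix Mouse Gene 1.0 ST arrays. Groups follow the sample titles and the series design; in the protocol of the RNA extraction the 2 group sizes are swapped. Rarb itself read 11.70 to 11.81 in the arrays titled WT and 9.72 to 10.01 in those titled null, without overlap. Whether the probe set lies in the deleted part of the gene was not given in the sources used here. Every WT array had a lower median over all probe sets (7.016 to 7.057) than every Rarb-null array (7.082 to 7.107). This shift was not uniform. The median difference, Rarb-null minus WT, was 0.064 for the dim genes left untested and -0.017 for the genes tested.

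ATP and ADP that neurons and glia release are cut to AMP by ectonucleoside triphosphate diphosphohydrolases, the ENTPD enzymes, and AMP is cut to adenosine by ecto-5′-nucleotidase, also called CD73, the product of Nt5e. Adenosine then acts on its receptors, of which the product of Adora2a is dense on the striatal projection neurons that carry the dopamine receptor Drd2. It is taken up through equilibrative carriers such as the product of Slc29a1, and inside cells adenosine kinase returns it to AMP while adenosine deaminase turns it into inosine.

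Because the mutation removes a DNA-binding receptor, the 250 bases before the annotated start of each gene were searched for half-sites that retinoic acid receptors are known to bind. Both strands were searched for the letters AGGTCA and for the variants with the letters AGTTCA, with the letters GGGTCA and with the letters GGTTCA. The sequences are RefSeq's, of build GRCm38.p6, written in the direction of the gene; all 7 genes matched, with 16 windows since some genes have several starts. Rarb is shown as a check of the search, since its promoter holds a well-known response element, and Nt5e and Entpd3 because they were the 2 genes lower in every Rarb-null array. Capitals mark half-sites. The windows are chr14:16575477-16575726 on the minus strand for Rarb, and chr9:88327359-88327608 and chr9:120539568-120539817, both on the plus strand, for Nt5e and Entpd3.
Rarb: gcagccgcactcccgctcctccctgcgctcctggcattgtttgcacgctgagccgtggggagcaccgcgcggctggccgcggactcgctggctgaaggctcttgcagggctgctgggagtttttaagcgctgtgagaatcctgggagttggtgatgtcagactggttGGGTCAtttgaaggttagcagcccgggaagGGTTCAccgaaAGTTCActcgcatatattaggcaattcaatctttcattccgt
Nt5e: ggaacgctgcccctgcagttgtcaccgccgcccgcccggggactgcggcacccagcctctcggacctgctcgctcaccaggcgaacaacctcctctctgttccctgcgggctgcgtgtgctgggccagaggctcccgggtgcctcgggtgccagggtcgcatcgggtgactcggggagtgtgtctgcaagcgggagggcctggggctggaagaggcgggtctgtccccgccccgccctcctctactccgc
Entpd3: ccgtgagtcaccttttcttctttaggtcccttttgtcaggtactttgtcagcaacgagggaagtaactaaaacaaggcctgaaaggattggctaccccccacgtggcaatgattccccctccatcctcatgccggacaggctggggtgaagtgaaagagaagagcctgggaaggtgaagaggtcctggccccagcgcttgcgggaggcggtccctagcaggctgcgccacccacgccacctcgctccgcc

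The Rarb window held 3 half-sites, beginning 83, 53 and 42 bases upstream of the start, and the last 2 formed a direct repeat spaced by 5 bases, a spacing found in 0.0883% of all 32851 windows. The windows of Nt5e and Entpd3 held no half-site, while 38.6% of all windows held at least 1. Among the other genes, the Ada window held 1 (GGTTCA, beginning 99 bases upstream) and 4 of the 8 windows of Slc29a1 held 1 each. The windows of Adk, Entpd1 and Entpd2 held none. No window of the 7 genes held 2 half-sites repeated 1, 2 or 5 bases apart. A match is only a run of letters, and the lack of one says nothing of sites outside these 250 bases.

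Of the enzymes that act on nucleotides outside cells, Nt5e and Entpd3 were lower in Rarb-null mice, whereas the values of Entpd1 and Entpd2 overlapped between genotypes. Nt5e makes adenosine from AMP at the cell surface. It read 9.01 at the lowest, 9.04 at the median and 9.19 at the highest among the 6 WT arrays. In Rarb-null replicates 1 to 5 it read 8.35, 8.24, 8.33, 8.26 and 8.26. Every Rarb-null array thus lay below every WT array, with a gap of 0.66 between the groups. The means were 9.07 ± 0.07 (SD, n = 6) and 8.29 ± 0.05 (SD, n = 5). The difference, always Rarb-null minus WT, was -0.78 (SE 0.039, 95% interval -0.86 to -0.69), a 1.72-fold lower level, and 36 of the 11963 genes that passed the filter on dim genes (mean above log2 6.99) had a larger fall. As Nt5e was chosen for this fall, the interval and the rank describe it and are no support for it. In a bulk punch, fewer cells that express a gene and less RNA per cell cannot be told apart.

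Entpd3, whose enzyme NTPDase3 is the form of the family known mainly from neurons, fell. WT arrays ran from 9.96 to 10.10 with a median of 9.98. The Rarb-null arrays read 9.70, 9.67, 9.64, 9.81 and 9.83, again without overlap. The difference was -0.27 (SE 0.043, 95% interval -0.37 to -0.18; limma, Benjamini-Hochberg adjusted p = 0.000686 over all genes tested), or 1.21-fold, lower in 5 of 5 Rarb-null arrays. It was the 1 call among 5 members tested, as Nt5e was set aside and Ada was below the filter. Over all genes 19.6% were called, 12% lower and 7.56% higher. When each array's median over the tested genes was set to a common value, these became 7.85% lower and 14% higher. The share of calls that were higher thus moved from 38.7% to 64.1%. WT and Rarb-null arrays held apart for 11.2% of genes, 7.33% being lower in Rarb-null.

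**Figure D1:**
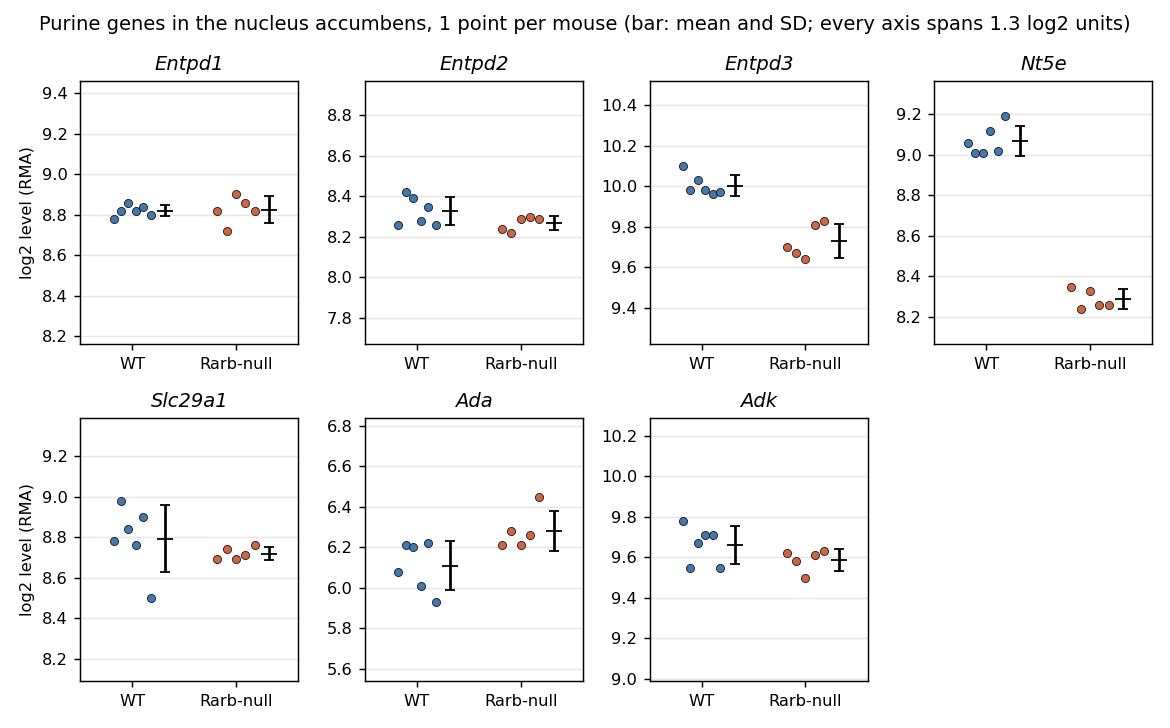
Log2 level after RMA (vertical axes, each spanning 1.3 units) of the 7 genes, with 1 point per mouse in replicate order, WT in blue and Rarb-null in orange, and the mean and SD to the right of each group. The groups stand apart for Nt5e (9.01 and above against 8.35 and below) and Entpd3 (9.96 and above against 9.83 and below) and overlap in the other 5 panels.

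Entpd1 encodes CD39, the ATP- and ADP-cutting enzyme of microglia and blood vessels. Its levels ran from 8.78 to 8.86 in WT arrays. In Rarb-null arrays they were 8.82, 8.72, 8.90, 8.86 and 8.82, which spans the whole WT range. The difference was 0.00 (SE 0.035, 95% interval -0.07 to 0.08; limma Benjamini-Hochberg adjusted p = 0.953). Entpd2, whose enzyme prefers ATP and leaves ADP, read 8.26 to 8.42 in WT arrays (median 8.31). The Rarb-null arrays read 8.24, 8.22, 8.29, 8.30 and 8.29 and lay in the lower part of that range or just under it. The difference of -0.06 (SE 0.038, 95% interval -0.14 to 0.02; adjusted p = 0.299) did not pass, and a fall of the size seen for Entpd3 lies outside both intervals.

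Entpd3 was also set beside the other 2 by the log2 difference between the probe sets within each array, in 2 pairs. Both pairs hold Entpd3, the 1 member called, and use the same arrays as that call. Their p-values are therefore no separate support for it. Entpd3 minus Entpd1 was 1.12 to 1.32 in WT and 0.73 to 1.01 in Rarb-null arrays, a change of -0.28. The two-sided exact permutation p was 0.00216 (Benjamini-Hochberg adjusted over 2 pairs 0.00432), the smallest that 462 splits of the arrays can give. Entpd3 minus Entpd2 was 1.56 to 1.84 in WT and 1.34 to 1.53 in Rarb-null arrays, a change of -0.22 (exact permutation p = 0.00433, adjusted 0.00433). In these arrays Entpd3 was lower relative to both relatives, which restates its own fall beside their small differences. The offsets themselves, which compare different probe sets, have no meaning as levels.

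The carrier and the 2 enzymes that clear adenosine did not pass the test in the fit as reported. Slc29a1 encodes ENT1, which moves adenosine across the membrane in either direction. WT arrays ran from 8.50 (replicate 6) to 8.98 with a median of 8.81, and Rarb-null arrays read 8.69, 8.74, 8.69, 8.71 and 8.76. The Rarb-null arrays sat inside the WT range and close together (SD 0.03 against 0.17 in WT). The difference was -0.07 (SE 0.067, 95% interval -0.22 to 0.07; limma Benjamini-Hochberg adjusted p = 0.468). Without WT replicate 6 it was -0.13 (adjusted p = 0.0553). With the replicate number as a block in the fit it passed (-0.13, SE 0.036, adjusted p = 0.0302). No Rarb-null array has the number 6, so that fit also sets WT replicate 6 aside.

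Adk encodes adenosine kinase, which in the adult brain is mainly an astrocyte enzyme. It read 9.55 to 9.78 in WT arrays (median 9.69) and 9.62, 9.58, 9.50, 9.61 and 9.63 in Rarb-null arrays, with wide overlap. The difference was -0.07 (SE 0.045, 95% interval -0.17 to 0.02; limma Benjamini-Hochberg adjusted p = 0.259). Of the 7 genes it alone lies on the chromosome of Rarb, 14, with 38 protein-coding genes between them in the RefSeq order. Alleles of the strain that carried the mutation and the mutation itself cannot be told apart there; of 23 genes tested in the stretch between, 5 fell and 1 rose, where 12% and 7.56% of all tested genes did. The probe set of Ada, for adenosine deaminase, was dim, below the filter, and is read from the fit without a filter. Ada ran from 5.93 to 6.22 in WT arrays and read 6.21, 6.28, 6.21, 6.26 and 6.45 in Rarb-null arrays, so the groups met at their edges. The difference was 0.17 (SE 0.061, 95% interval 0.04 to 0.30; adjusted p = 0.0774). Of all 19938 genes, the fit without a filter called 12.6%, and 6.41% as higher. Dim genes in general read higher in Rarb-null arrays: 80.1% of the 7975 genes below the filter had a difference above 0 (median 0.064), against 42.8% of the genes tested.

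**Figure D2:**
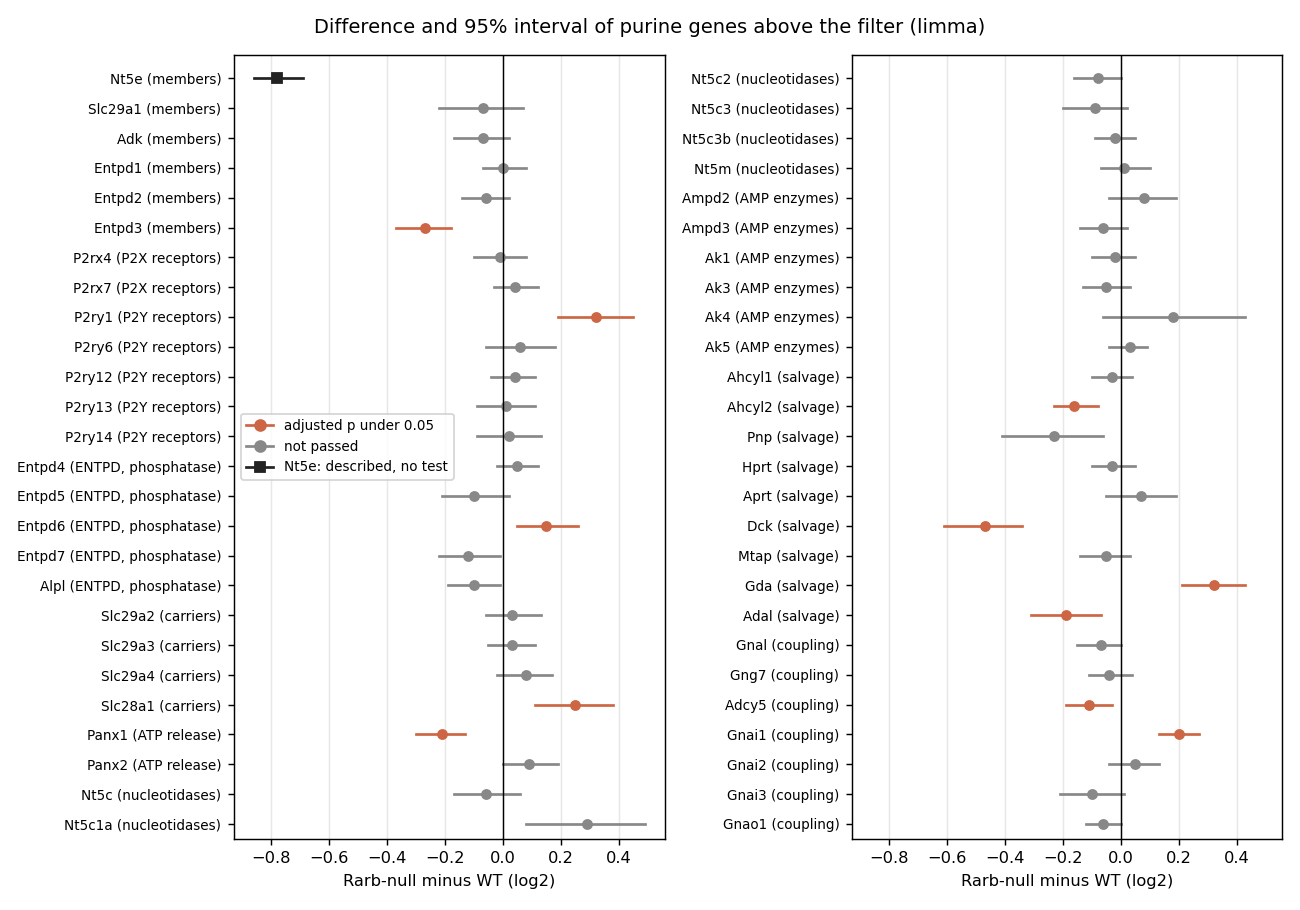
Difference between Rarb-null and WT means (log2, horizontal axis) with its 95% interval from limma for the 6 members above the filter and the 46 tested genes of the wider purine list, whose group is named in brackets. Orange marks an adjusted p under 0.05, grey a gene that did not pass and the black square Nt5e, described without a test; Nt5e (-0.78) lies farthest from 0, followed by Dck (-0.47).

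A wider list of 69 purine genes, chosen by function, was set beside the members. It held 64 genes with a probe set, of which 46 passed the filter. Of these, 5 fell, 5 were called higher and 36 did not pass. Over all genes tested 12% were called lower and 7.56% higher, so the calls are not read as particular to purine genes. Of the 5 higher calls, Slc28a1 passed the filter only through its Rarb-null arrays and is not read as a rise. The median difference of the list (-0.013) was close to that of all genes tested (-0.017). With arrays centred, 3 were called lower and 7 higher, where 7.85% and 14% of all genes tested were. The falls also numbered 3 when any 1 array among WT replicates 4, 5 and 6 or, of the Rarb-null mice, replicates 2 and 3 was left out, 3 with a filter at the 60th percentile, and 3 once the mean level of cortical neuron markers entered the fit (called the cortical covariate), while they numbered 7 with a trended robust variance. Higher calls numbered 4 to 7 over the 21 settings.

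Among the other nucleotidases, which cut AMP or related nucleotides inside cells, none of 6 tested genes passed. Their differences ran from -0.09 (Nt5c3) to 0.29 for Nt5c1a, the cytosolic AMP-cutting enzyme (SE 0.095, adjusted p = 0.0503). None of 6 AMP deaminase and adenylate kinase genes passed either, the farthest from 0 being Ak4 (0.18, adjusted p = 0.258). Of 5 further ENTPD and phosphatase genes tested, 1 was called higher, where 7.56% of all genes tested were. Entpd6 rose by 0.15 (SE 0.049, limma Benjamini-Hochberg adjusted p = 0.0421), from 9.38 to 9.57 in WT to 9.52 to 9.71 in Rarb-null arrays, which overlap. The call did not survive the loss of any 1 array among WT replicates 1, 2, 5 and 6 or, of the Rarb-null mice, replicates 1, 3 and 4, and was lost with the oligodendrocyte covariate and without a filter (adjusted p 0.057 to 0.155). Entpd4, Entpd5 and Entpd7, which like Entpd6 encode members of the ENTPD family known mainly from membranes inside cells, and the alkaline phosphatase gene Alpl gave 0.05, -0.10, -0.12 and -0.10 and did not pass.

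Of the release channels and carriers, Panx1 fell. Panx1 encodes pannexin 1, a channel through which cells release ATP. It read 9.03 to 9.22 in WT and 8.86 to 9.03 in Rarb-null arrays, a difference of -0.21 (SE 0.041; limma Benjamini-Hochberg adjusted p = 0.00286), while its relative Panx2 gave 0.09 (adjusted p = 0.135). Slc28a1 encodes a sodium-coupled nucleoside carrier, CNT1, and read 6.83 to 7.08 in WT and 7.00 to 7.35 in Rarb-null arrays (0.25, SE 0.062, adjusted p = 0.0159). Its WT mean of 6.94 lay below the filter and its Rarb-null mean of 7.19 above it, so it was tested only through the group where it was high, and most dim genes read higher in Rarb-null arrays. With the cortical covariate the call was lost (0.26, adjusted p = 0.0799). The equilibrative carrier genes Slc29a2, Slc29a3 and Slc29a4 gave 0.03, 0.03 and 0.08 and did not pass.

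Of 7 receptor genes for ATP, ADP and related nucleotides that passed the filter (2 P2X and 5 P2Y), P2ry1 rose and the other 6 did not pass. Among all genes tested 7.56% were called higher. P2ry1 encodes an ADP receptor. It read 9.17 to 9.47 in WT arrays and 9.77, 9.47, 9.68, 9.69 and 9.64 in Rarb-null arrays, so that the groups met at 9.47. The difference was 0.32 (SE 0.061; limma Benjamini-Hochberg adjusted p = 0.0029). The microglial receptor genes P2ry12 (0.04) and P2ry13 (0.01) and the ATP-gated channel gene P2rx7 (0.04) were among those that did not pass.

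In purine salvage and breakdown 3 genes fell and 1 rose among 9 tested, where 12% and 7.56% of all genes tested did. With so few genes these counts are not read as a pattern of the subgroup. Dck, the gene of deoxycytidine kinase, which also phosphorylates purine deoxynucleosides, fell by 0.47 (SE 0.063; limma Benjamini-Hochberg adjusted p = 0.00019). It read 8.14 to 8.31 in WT and 7.81, 7.60, 7.75, 7.70 and 8.03 in Rarb-null arrays, with replicate 5 nearest to WT and no overlap. Gda, the gene of guanine deaminase, rose by 0.32 (SE 0.053, adjusted p = 0.00113), from 10.47 to 10.70 in WT to 10.85 to 11.04 in Rarb-null arrays, also without overlap. Ahcyl2, a relative of the enzyme that splits S-adenosylhomocysteine into adenosine and homocysteine, fell by 0.16 (SE 0.035, adjusted p = 0.00784), a call lost with the cortical covariate (-0.15, adjusted p = 0.0786). Adal, an adenosine deaminase-like gene, fell by 0.19 (SE 0.057, adjusted p = 0.0337). Its call did not survive the loss of any 1 array among WT replicates 4, 5 and 6 or, of the Rarb-null mice, replicates 2, 3 and 4, and was lost with arrays centred and with either marker covariate (adjusted p 0.0512 to 0.0957). Pnp, the gene of purine nucleoside phosphorylase, gave -0.23 (adjusted p = 0.0579). It has a near-identical copy, Pnp2, so its probe set is uncertain. Like Adk it lies on the chromosome of Rarb, 14, with 312 protein-coding genes between them, and the part of linked strain alleles was not tested.

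**Figure D3:**
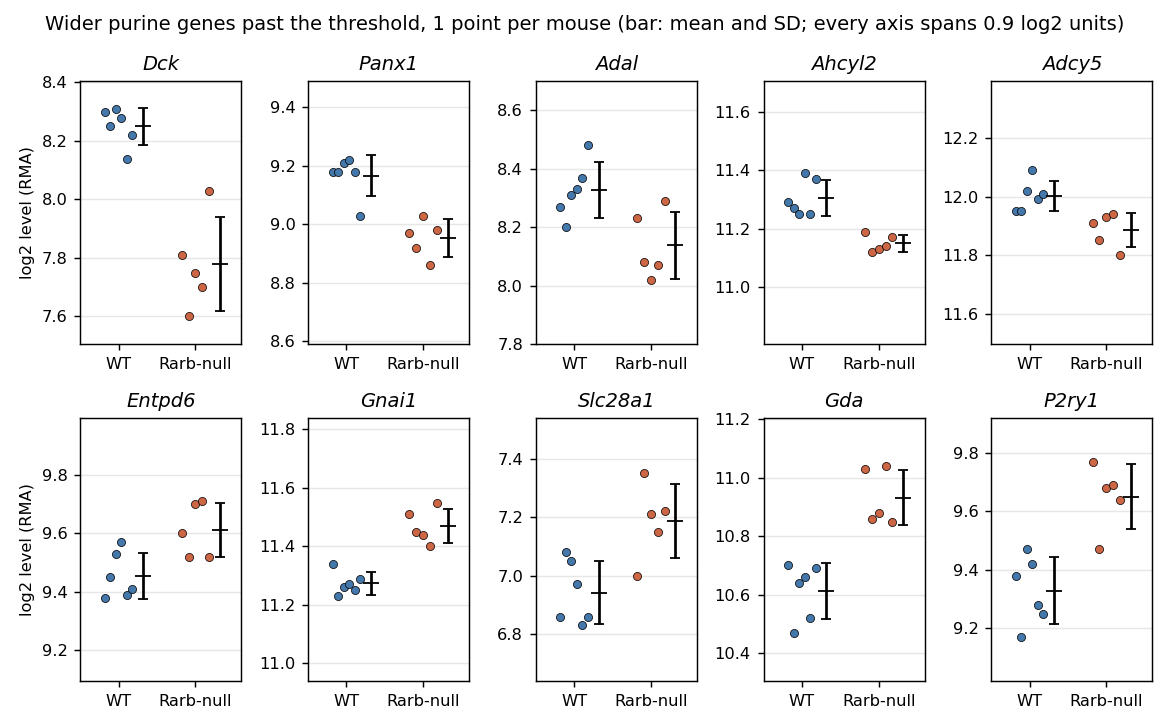
Log2 level after RMA (vertical axes, each spanning 0.9 units) of the 10 wider purine genes past the threshold, 1 point per mouse in replicate order with the mean and SD beside each group. Dck (8.14 and above in WT, 8.03 and below in Rarb-null), Gda, Gnai1, Ahcyl2 and Adcy5 show no overlap, and the groups overlap or meet for the other 5.

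Of 7 genes of the G proteins and cyclase to which adenosine receptors couple, 1 fell and 1 rose, where 12% and 7.56% of all genes tested did. Gnai1, which encodes an inhibitory G protein subunit of the kind used by A1 receptors, rose by 0.20 (SE 0.034; limma Benjamini-Hochberg adjusted p = 0.00145), from 11.23 to 11.34 in WT to 11.40 to 11.55 in Rarb-null arrays. Adcy5, the main adenylyl cyclase of striatal projection neurons, fell by 0.11 (SE 0.037, adjusted p = 0.045). That call was lost in 12 of 21 alternative settings, including arrays centred, the cortical covariate (-0.05, adjusted p = 0.506) and the loss of any 1 array among WT replicates 3, 4, 5 and 6 or, of the Rarb-null mice, replicates 1, 2, 3 and 5. Gnal, the stimulatory subunit that couples to the Adora2a product in striatum, gave -0.07 (SE 0.035, adjusted p = 0.152), and Gng7 gave -0.04.

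Most markers of the neurons known to carry the Adora2a product were lower in the same arrays as Nt5e and Entpd3, as were most markers common to projection neurons. Over all genes tested 12% were called lower and 7.56% higher. Of 7 markers of Drd2 neurons 5 fell, with a mean level of 11.23 to 11.32 in WT and 10.91 to 11.00 in Rarb-null arrays. Their median difference was -0.31. Penk, their enkephalin precursor gene, gave -0.07 (limma Benjamini-Hochberg adjusted p = 0.103) and Sp9 gave -0.01 (adjusted p = 0.905), and neither passed. Drd2 itself fell by 0.31 (SE 0.046, adjusted p = 0.00048). Of 9 markers of Drd1 neurons 4 fell and 1 rose, with a median difference of -0.17, while Drd1 gave -0.09 (adjusted p = 0.0744). Their mean level was 10.03 to 10.08 against 9.91 to 10.02, which includes the 1 riser, the transcription factor gene Ebf1, at 1.16 (SE 0.126, adjusted p = 3.24e-05), named after its value was seen. Of 9 measured genes common to projection neurons 7 fell (11.68 to 11.78 against 11.34 to 11.48). Among these, Ppp1r1b passed only narrowly (adjusted p = 0.0499) and the call of Adcy5 was lost in 12 of 21 alternative settings. All 3 cholinergic neuron markers fell (8.38 to 8.60 against 8.19 to 8.31). The part of these lists in the differences of Nt5e and Entpd3 was not tested.

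Other cell types were read in the same way, beside the same shares over all genes tested (12% lower and 7.56% higher). The counts cover tested markers only, but each mean level covers every marker with a probe set, also those below the filter. The levels thus average 8 cortical, 8 microglial, 6 meningeal fibroblast and 6 other interneuron markers. Cortical neuron markers, of which 3 of 6 tested rose and 0 fell, had a mean level of 7.22 to 8.04 in WT and 7.90 to 8.54 in Rarb-null arrays. With this level as a covariate Nt5e differed by -0.76 (SE 0.055) and Entpd3 by -0.28 (SE 0.060, adjusted p = 0.0101). P2ry1, Gda and Gnai1 gave 0.42, 0.42 and 0.18 with it and stayed past the threshold (adjusted p 0.0035, 0.000759 and 0.0306). Of 7 oligodendrocyte markers 3 fell (9.92 to 10.11 against 9.82 to 10.08), and with that level as a covariate Nt5e and Entpd3 gave -0.78 and -0.29. Of 8 astrocyte markers 3 fell and 1 rose (9.89 to 9.98 against 9.81 to 9.89). None of the 7 microglial markers tested passed (8.53 to 8.71 against 8.47 to 8.65), nor did any of 9 endothelial and mural markers (8.45 to 8.52 against 8.40 to 8.52). Of meningeal fibroblast markers, a cell type known to carry CD73, 2 of 4 tested rose and 0 fell (6.78 to 7.00 against 6.92 to 7.14), and Dcn gave -0.03; their part in the difference of Nt5e was not tested. Of 4 other interneuron markers tested 2 rose (8.90 to 9.37 against 9.25 to 9.63). These were Npy (0.40, limma Benjamini-Hochberg adjusted p = 0.00195) and Cck (0.79, adjusted p = 0.049), while Sst (0.18) and Nos1 (0.14) did not pass. Cck passed only narrowly and varied widely, from 8.85 to 10.43 in WT arrays and from 10.04 to 10.89 in Rarb-null arrays. The 4 markers of ependyma and choroid plexus read 6.00 to 6.13 against 6.15 to 6.33, and only Ccdc153 passed the filter. Its WT mean of 6.98 lay below the filter and its Rarb-null mean of 7.17 above it, so it is not read as a rise. The others lay below the filter, where most genes read higher in Rarb-null arrays. The part of glial, cortical and interneuron markers in the differences was not tested. The mean cortical level was itself 7.59 in WT and 8.09 in Rarb-null arrays. A fit with this level as a covariate therefore cannot separate it from genotype.

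**Figure D4:**
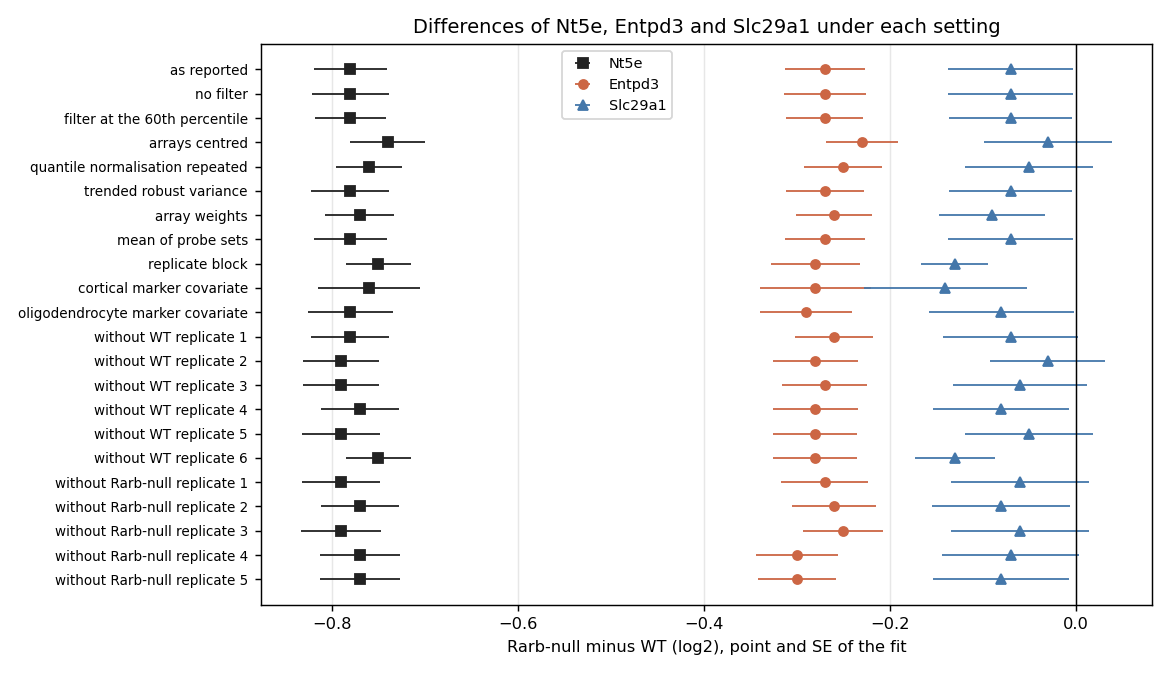
Difference between Rarb-null and WT (log2, horizontal axis; point and SE of the fit) for Nt5e, Entpd3 and Slc29a1 as reported and under each of 21 alternative settings named on the vertical axis. Nt5e stays between -0.79 and -0.74 and Entpd3 between -0.30 and -0.23, while Slc29a1 moves between -0.14 and -0.03.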

How the data were processed

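RNA from the accumbens of 11 mice was hybridised to 1 array each. The authors deposited RMA values, per the labels, which are taken here as log2 from their range. Software version, annotation and joint normalisation are not given in the sources used here. RMA gives arrays a like distribution, and dim probe sets understate folds. Of 35556 probe sets, 21789 had 1 symbol in the platform table (21698 updated through a RefSeq table of GRCm38.p6), 1621 had several and 12146 were not listed. A gene was read by its brightest probe set; those with a mean above the 40th percentile were tested.

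Genotypes were compared with limma 3.58.1 (R 4.3.3; lmFit, eBayes, no covariates) with Benjamini-Hochberg adjustment over all genes tested and a threshold of 0.05. The procedure was tested on simulated data. Figures used matplotlib 3.10.9. The number of arrays limits the precision. Replicates are separate mice.

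The members, lists and tests were chosen with earlier results of these data known. All members were named, with every wider purine gene past the threshold and the 5 genes closest to Nt5e. Up to 8 others per subgroup could be named by size of difference, but those named were not always the ones with the largest differences. Genes like Adora2a were not sought, since it had no probe set. The lists cover wider purine genes and markers of 12 cell classes. Alternatives were the filter, scaling, variance model, array weights, probe sets, a replicate block, 2 marker covariates and each array left out.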

Additional observations from a re-analysis of the deposited data

Results flagged for a closer look

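Of 34 groups of arrays checked (7 members and 10 called wider purine genes in both genotypes), 1 held an array far from the rest, where chance gives about 1 in 20. Panx1, the pannexin 1 gene, had a level of 9.03 in WT replicate 6, while its level elsewhere in WT was 9.18 to 9.22. Without that array its difference was -0.24 (SE 0.035, limma Benjamini-Hochberg adjusted p = 0.00063), against -0.21 with it.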

How the results depend on the processing

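Under 21 alternatives, 11 of them leaving out 1 array, the difference of Nt5e ran from -0.79 to -0.74 and that of Entpd3 from -0.30 to -0.23 (adjusted p 0.000305 to 0.0101), and no member was called higher. Members called lower numbered 1 in each setting except the replicate block, with 2, since Slc29a1 then passed (-0.13, adjusted p = 0.0302). Same-numbered arrays are different mice, and the fit as reported did not take the numbers as pairs. The correlation of their deviations ran from 0.056 to 0.425 over 5 pairs, and 3 of 5 null arrays correlated best with their own number. Whether same-numbered arrays shared a batch was not tested. With the block 24% of all genes were called. Wider purine genes called lower numbered 5 as reported, 3 with the filter at the 60th percentile, with arrays centred or with the cortical covariate, 6 with the replicate block, 7 with a trended robust variance, and 3 to 5 when 1 array was left out. The share of all genes called was 19.6% as reported, 12.6% without a filter, 9.25% with the cortical covariate and 12.9% without Rarb-null replicate 3. Signal over background was not measured, which limits Ada most: its difference ran from 0.08 to 0.19 (adjusted p 0.0596 to 0.58).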

Other observations

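Most receptors for extracellular ATP were dim here. Of the wider purine list 18 genes lay below the filter, among them 5 of 7 P2X channel genes, and all 18 read higher in Rarb-null arrays, by 0.03 to 0.20 (median 0.08), where 80.1% of all genes below the filter did so. P2ry2, which encodes a receptor for ATP and UTP, was the 1 of them past the threshold in the fit without a filter (0.20, SE 0.060, limma Benjamini-Hochberg adjusted p = 0.0416). That fit called 6.41% of all 19938 genes as higher, so the call is not read as particular to P2ry2. Its arrays overlapped between genotypes, with 6.24 to 6.58 in WT and 6.48 to 6.69 in Rarb-null.

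With genotype means removed, the genes whose remaining variation over the 11 arrays was most like that of Nt5e were Adam22 (Pearson r 0.95, Spearman rho 0.95), Tmem245 (0.95 and 1), Ep300 (0.95 and 0.86), Sptlc1 (0.94 and 0.88) and Ubn2 (0.93 and 0.91). These were the 5 highest of all genes tested. The arrays share their RNA samples and normalisation across genes, so these values are a description. Of the 5, Ubn2 differed between genotypes by -0.12 (SE 0.038, limma Benjamini-Hochberg adjusted p = 0.0443). The other 4 gave -0.08 to 0.03 and did not pass.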
